A study of Homo sapiens with 4 samples.

Results

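The 38 giant coding mRNAs described here encode some of the largest proteins of a human cell. They were taken by symbol from the table of 26364 gene rows. The choice was for very long coding sequences in cytoskeletal, ubiquitin ligase, kinase and scaffold proteins. It was made with earlier results of these data known, so it was not independent of them. All 38 had a row, all had at least 100 counts in each library, and all were among the 13574 genes that passed the filter on low counts. In GENCODE release 44 the coding sequence of the canonical transcript ran from 1960 codons in MYH9 to 7818 codons in DST.

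The study sequenced RNA from polysomes of HCT116 cells, an epithelial line from a human colorectal carcinoma. A sucrose gradient of wild type cells and a gradient of cells labelled Dicer1 knockout were each divided into heavy polysomes, with 10 or more ribosomes on an mRNA, and light polysomes, with 9 or fewer. This gave 4 groups with 1 library each. No treatment or time is named in the labels, nor whether the knockout line is a single clone.

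A ribosome covers a short stretch of an mRNA, so a long coding sequence has room for more ribosomes and takes longer to translate. How many ribosomes it carries also depends on how often translation starts and how fast ribosomes move. Many giant proteins work as single long chains: linkers that span filament networks, motors with long stalks, ligases built from helical repeats, and kinases of the PI3K-related family. DICER1 cuts microRNA precursors, and microRNAs lower the translation and stability of the mRNAs they bind.

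The gene that the label says was knocked out did not have fewer reads in the libraries labelled knockout. DICER1 counts were 500 (heavy) and 547 (light) for the wild type gradient and 925 (heavy) and 889 (light) for the other gradient, which is higher by 0.95 and 0.96 on the log2 scale after scaling. Counts per gene cannot tell an intact from an altered transcript, so the name "labelled knockout" is kept below, and each direction drawn from it rests on that label.

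Library totals ran from 17457116 to 20933675 counts, and ribosomal RNA took 2.61 to 5.97% of them. Of 8 epithelial marker genes, all 8 had at least 50 counts in each library. Of 20 fibroblast, endothelial and blood markers, 3 reached that level in each library (COL1A1, ACTA2 and CD68) and 5 were at 0 in all 4. The summed level of the 20 was 37.3 to 77.5 CPM (counts scaled to an equal library size by TMM), beside 2553 to 10686 CPM for the 8 epithelial markers.

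Coding sequences are shown for 2 families in which close relatives stood far apart in the gradient, and in each family the windows encode the same amino acids. The letters are reference sequence from GENCODE 44 on GRCh38, whereas the counts were made on hg19. Capitals mark the third codon position where it is G or C. The first window lies in the motor domain of the nonmuscle myosin heavy chains, which pull on actin filaments. It is at chr22:36326631-36326660 on the minus strand for MYH9, chr19:50223248-50223277 on the plus strand for MYH14, and chr17:8577308-8577337 on the minus strand for MYH10.
MYH9: ggtgaatctggagctggCaaGacGgaGaaC
MYH14: ggagaGtctggagctggGaaGacGgaaaaC
MYH10: ggtgaGtcaggtgctggGaaGacagaaaat

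MYH9 and MYH14 had G or C at the end of 5 of the 10 codons in this window and MYH10 at the end of 3. The second set comes from the kinase domain of 3 PI3K-related kinases. MTOR, the kinase of the growth complexes mTORC1 and mTORC2, has it at chr1:11115465-11117017 on the minus strand, across an intron. ATR, which responds to stalled replication forks, has it at chr3:142459030-142459047 on the minus strand, and ATM, which responds to double-strand breaks, at chr11:108347293-108347310 on the plus strand.
MTOR: ggCctGggagatagacaC
ATR: ggGcttggagaCcgtcat
ATM: ggacttggtgatagacat

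Of the 6 codons in that window, 3 end in G or C in MTOR, 2 in ATR and 0 in ATM. The fitted log2 ratios of heavy to light polysomes were 2.07, 1.07 and -0.49. These windows were picked with the ratios known and show where the codons differ, not a relation. Over the whole coding sequence the share of codons that end in G or C was 63.8% in MTOR, 34.9% in ATR and 34.8% in ATM, so ATR and ATM were nearly level.

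Most giant mRNAs lay toward heavy polysomes. The 38 together took 0.339% of the counts of the wild type heavy library (exact 95% interval 0.336 to 0.341%) and 0.118% of the light one (0.116 to 0.119%). In the labelled knockout the shares were 0.499% (0.496 to 0.503%) and 0.186% (0.184 to 0.188%). These intervals cover counting error within each library only, not differences between replicate libraries. In edgeR's quasi-likelihood test of heavy against light, with the gradient as a block and Benjamini-Hochberg adjustment over all genes tested, 33 of 38 were higher in heavy polysomes, 1 in light polysomes and 4 passed in neither direction. Over all genes tested, 30.0% passed toward heavy and 29.3% toward light. The members' median log2 ratio was 1.31, and it ranged from -0.62 to 2.67. The median of all genes tested was -0.07.

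Each gradient alone gave the same picture. The ratio was above 0 for 36 members in the wild type gradient and for 35 in the labelled knockout gradient. The medians in these were 1.49 and 1.37, beside -0.10 and -0.01 for all genes tested. Without the gradient block 24 passed toward heavy, beside 2857 of all 13574 genes tested. Of the 33 called members, 27 were at least 2-fold and 11 at least 4-fold higher in heavy polysomes. The share of all genes called at these folds was not counted. The ratios are relative, since each library is scaled to its own content and the amount of RNA in each fraction is not known. In bulk material, fewer cells with an mRNA and less of it per cell cannot be told apart. The 2 gradients are of different genotypes and serve as replicates of the fraction contrast only, so the p-values measure the disagreement between them, with 1 residual degree of freedom and a spread trend shared over genes.

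**Figure D1:**
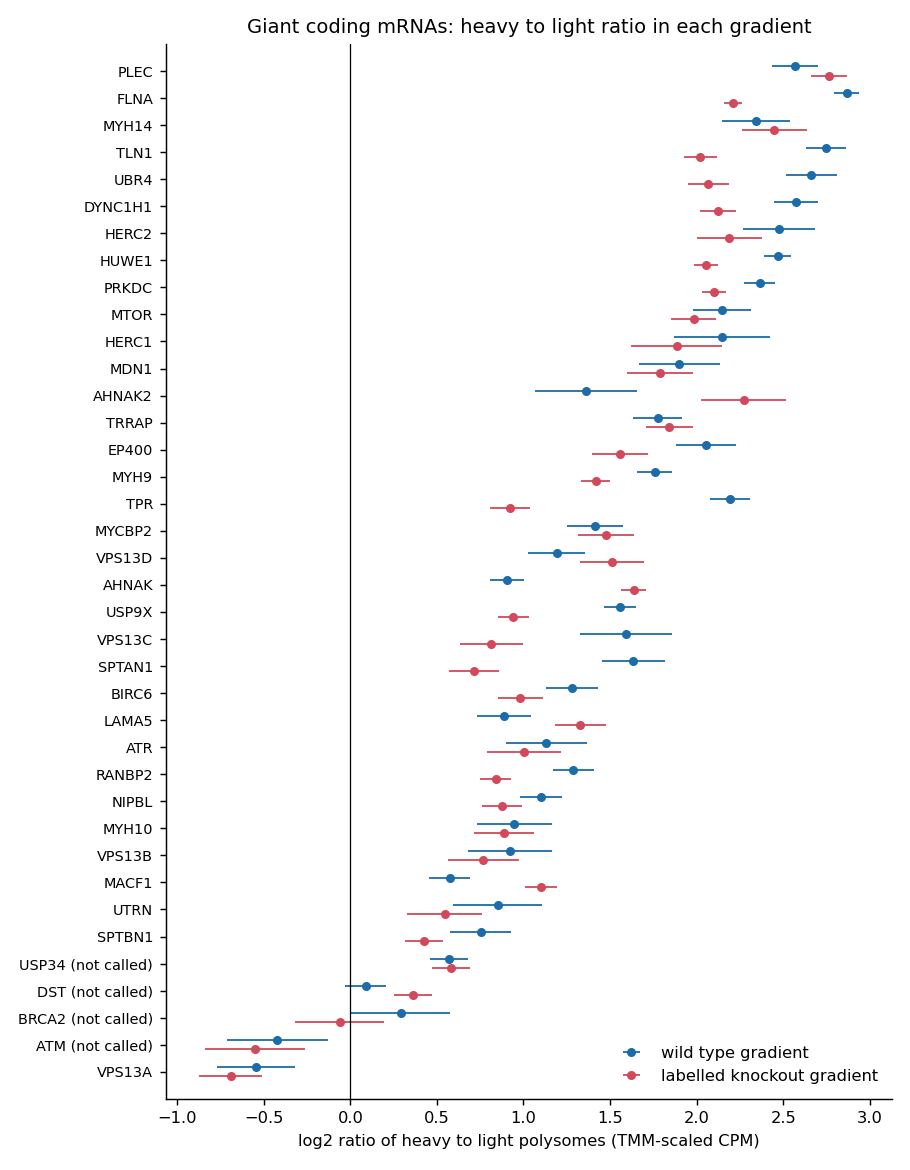
Log2 ratio of heavy to light polysomes for each of the 38 members in the wild type and the labelled knockout gradient, with 95% counting intervals. Members are ordered by the fitted ratio. Most points lie right of 0, and ATM and VPS13A lie left of it in both gradients.

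The cytoskeletal linkers held both the highest ratio and a member near 0. Of 10, 9 passed toward heavy polysomes and DST did not, with a median of 1.22. PLEC encodes plectin, which ties intermediate filaments to adhesions and to other filaments, and lies on chromosome 8 from 143915153 to 143976734. It had 2702 and 529 counts in heavy and light wild type polysomes and 5520 and 823 in the labelled knockout ones. Both heavy libraries were well above both light ones. The log2 ratio of 2.67 (SE 0.30, edgeR adjusted p = 1.45e-16) was the highest of the 38.

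FLNA (chromosome X, 154348524 to 154374634), whose product filamin A crosslinks actin, was the most abundant member per length. Its mean level was 49.2 CPM per kb of the canonical transcript, followed by HUWE1 at 18.5, MYH9 at 17.7, PRKDC at 17.3 and TLN1 at 16.1 CPM per kb. ATM, at 0.785 CPM per kb, had the lowest level. FLNA had 11104 and 1769 counts in heavy and light wild type polysomes and 14973 and 3283 in the labelled knockout ones, which gave 2.54 on the log2 scale (SE 0.33, edgeR adjusted p = 6.10e-13). TLN1, which encodes talin, the link from integrins to actin, was close to it at 2.39.

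The 2 AHNAK genes, which encode very large scaffold proteins of the cell cortex, differed in their ratios between the gradients. AHNAK had 2178 and 1352 counts in wild type heavy and light polysomes and 6429 and 2097 in the labelled knockout ones, a log2 ratio of 0.91 in the first gradient and 1.64 in the second. AHNAK2 had 292 and 131, then 754 and 157, with ratios of 1.36 and 2.27. Both were higher in heavy polysomes in each gradient, and the fit gave 1.27 for AHNAK and 1.84 for AHNAK2, each called. Of the 50-base windows of their coding sequence, 9.18% in AHNAK and 13.0% in AHNAK2 recur elsewhere in the same gene.

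Spectrins, which form the lattice under the plasma membrane, gave smaller values. SPTAN1, the alpha chain, had 887 and 331 counts in wild type heavy and light polysomes and 1025 and 634 in the labelled knockout ones. SPTBN1, the beta chain, had 625 and 431, then 1497 and 1131. The fitted ratios were 1.17 (edgeR adjusted p = 4.22e-05) for SPTAN1 and 0.59 (edgeR adjusted p = 0.0447) for SPTBN1. The call for SPTBN1 was lost with DESeq2 (adjusted p = 0.0517), without the filter on low counts, with library totals as the scale, and without the gradient block.

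MACF1, which joins microtubules to actin, had 1269 and 992 counts in wild type heavy and light polysomes and 3015 and 1427 in the labelled knockout ones, for a fitted ratio of 0.84. UTRN, which encodes utrophin, an actin link of the dystroglycan complex, reached 0.70 (edgeR adjusted p = 0.0144), and lost its call with library totals as the scale (edgeR adjusted p = 0.135). DST, which encodes dystonin and has the longest coding sequence of the 38, had 1094 and 1197, then 1469 and 1160. Its 2 fractions were nearly level in the wild type, and the fitted ratio of 0.23 did not pass (edgeR adjusted p = 0.470) and was -0.0075 with library totals as the scale. DST and MACF1 have shorter isoforms, and counts per gene do not separate them.

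All 4 motor heavy chains passed toward heavy polysomes, with a median of 1.97. DYNC1H1 encodes the heavy chain of cytoplasmic dynein, the motor that carries cargo toward microtubule minus ends, and lies on chromosome 14 from 101964573 to 102056443. It had 3017 and 588 counts in wild type heavy and light polysomes and 3913 and 910 in the labelled knockout ones, which gave 2.35 on the log2 scale (SE 0.29, edgeR adjusted p = 6.77e-14). The nonmuscle myosins fell in the order MYH14 at 2.40, MYH9 at 1.59 and MYH10 at 0.92, and all 3 were called.

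MYH14 had 1101 and 251 counts in wild type heavy and light polysomes and 1466 and 271 in the labelled knockout ones. MYH9 had 2999 and 1031, then 4232 and 1607. MYH10 had 449 and 270, then 753 and 412. In both gradients MYH14 had the highest heavy to light ratio and MYH10 the lowest, with 2.34 against 0.95 in the wild type and 2.45 against 0.89 in the labelled knockout. The difference between the genes was not tested.

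The smaller subunits of the same motors lay on both sides of 0. Of 24 tested genes for smaller dynein and dynactin subunits, 7 passed toward heavy and 9 toward light polysomes, with a median of 0.01. DYNLL1, the light chain LC8, had 2132 and 7813 counts in wild type heavy and light polysomes and 1556 and 6157 in the labelled knockout ones. Its coding sequence has 89 codons, and its log2 ratio was -1.81 (SE 0.30, edgeR adjusted p = 3.15e-08). DCTN1, the largest dynactin subunit with 1278 codons, was at 2.94 (SE 0.31, edgeR adjusted p = 1.55e-18), above each of the motor heavy chains. No difference between the subunits and the heavy chains was tested.

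The other dynein genes called toward light were the light chains DYNLT3 (-1.80), DYNLT1 (-1.29), DYNLRB1 (-1.08) and DYNLL2 (-0.71), the dynactin parts CAPZA2 (-0.83), DCTN3 (-0.72) and ACTR1B (-0.61), and the regulator NDE1 (-0.59). Those called toward heavy, besides DCTN1, were the light intermediate chains DYNC1LI1 (1.82) and DYNC1LI2 (1.42), the intermediate chain DYNC1I2 (1.59), ACTR1A (1.35), DCTN4 (1.26) and DCTN2 (1.22). Among 10 myosin light chains and regulators, 3 passed toward heavy and 4 toward light polysomes, with a median of -0.10. The light chains MYL12A (-1.35), MYL6B (-1.33), MYL12B (-1.02) and MYL6 (-0.83) passed toward light, and MYL9 at -0.30 did not pass (edgeR adjusted p = 0.358). The phosphatase subunit PPP1R12A (1.36) and the kinases ROCK2 (0.76) and MYLK (0.75) passed toward heavy.

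**Figure D2:**
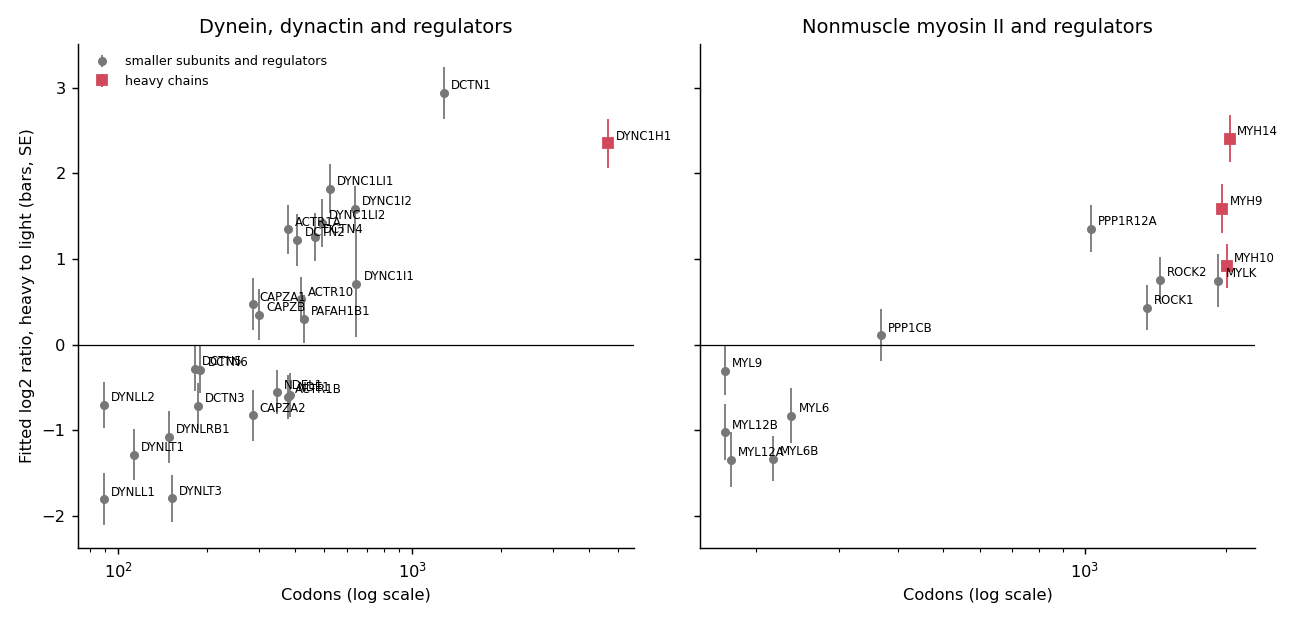
Fitted log2 ratio of heavy to light polysomes against coding length in codons (log axis) for dynein and dynactin and for nonmuscle myosin genes, with bars of 1 standard error. The light chains with short coding sequences lie below 0, and DYNC1H1 and the myosin heavy chains lie above it at the right.

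All 6 ubiquitin ligases passed toward heavy polysomes, and their median of 2.15 was the highest among the member groups of 2 or more genes. UBR4, which binds N-degrons, had 2399 and 439 counts in wild type heavy and light polysomes and 2925 and 707 in the labelled knockout ones, for a log2 ratio of 2.37. HUWE1, a HECT ligase on chromosome X from 53532096 to 53686752, had 7894 and 1660, then 8726 and 2134, for 2.26 (SE 0.31, edgeR adjusted p = 2.39e-11). HERC2 and HERC1, which join a HECT domain to RCC1-like repeats, were at 2.34 and 2.03. All 4 were at least 4-fold higher in heavy polysomes.

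The remaining ligases were lower. MYCBP2, which acts in axons as a RING-type ligase, was at 1.45, and BIRC6, a giant inhibitor of apoptosis that also conjugates ubiquitin, at 1.13. HERC2 shares 23.9% of its 50-base coding windows with other genes, and the HERC2 pseudogene with the most counts, HERC2P2, had 48 heavy and 113 light counts in the wild type gradient and 77 heavy and 159 light counts in the labelled knockout gradient. That row was itself low in heavy polysomes, at -1.02. How the counting divided such reads is not given, so the HERC2 value is uncertain to that extent.

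Of the 2 deubiquitinases, USP9X passed and USP34 did not. USP9X had 3301 and 1302 counts in wild type heavy and light polysomes and 2789 and 1473 in the labelled knockout ones, for a ratio of 1.25. USP34 had 1575 and 1235, then 1656 and 1124, for 0.58 (edgeR adjusted p = 0.0531). This missed the threshold, whereas DESeq2 gave an adjusted p of 0.0443. An opposite-strand gene, AHSA2P, overlaps 17.7% of the USP34 exons, and no strand setting is given, so its reads could be counted there.

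Of 23 smaller partners of the ubiquitin system, 7 passed toward heavy polysomes and 8 toward light, with a median of -0.21. The activating enzyme UBA1 was at 2.68 and the large conjugating enzyme UBE2O at 2.25. BIRC3 was at -1.62 and the small conjugating enzyme UBE2A at -1.31.

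The PI3K-related kinases spread over most of the range. PRKDC, the DNA-dependent kinase of end joining, had 5342 and 1207 counts in wild type heavy and light polysomes and 8700 and 2059 in the labelled knockout ones, which gave 2.23 on the log2 scale (SE 0.31, edgeR adjusted p = 2.14e-11). MTOR had 1334 and 349, then 2228 and 571, for 2.07. TRRAP, a kinase-like scaffold of histone acetyltransferase complexes, was at 1.81. ATR had 424 and 224, then 515 and 260, for 1.07.

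ATM alone of the 5 kinases had fewer counts in heavy than in light polysomes. It lies on chromosome 11 from 108223044 to 108369102 and had 152 heavy and 238 light counts in the wild type gradient, and 159 heavy and 237 light counts in the labelled knockout gradient. The log2 ratio was -0.42 in the first gradient and -0.55 in the second, and the fit gave -0.49 (edgeR adjusted p = 0.101). With library totals as the scale ATM was called toward light, at -0.72 (edgeR adjusted p = 0.0236). Of 35 partners of these kinases, 20 passed toward heavy and 4 toward light polysomes, with a median of 0.75. The Ku subunits XRCC5 (2.26) and XRCC6 (2.16), which bring PRKDC to DNA ends, were the highest.

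The 4 VPS13 genes encode bridge-like proteins that move lipids between membranes. VPS13D was at 1.35, VPS13C at 1.20 and VPS13B at 0.85, all called toward heavy polysomes. VPS13A, at chromosome 9 from 77177445 to 77421537, was the 1 member called toward light. It had 247 and 421 counts in wild type heavy and light polysomes and 384 and 631 in the labelled knockout ones. Both light libraries were above both heavy ones within their gradients, and the log2 ratio was -0.62 (SE 0.26, edgeR adjusted p = 0.0279). The call was lost with DESeq2 (adjusted p = 0.0788) and without the gradient block (edgeR adjusted p = 0.195).

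Of 6 nuclear scaffolds and remodellers, 5 passed toward heavy polysomes, with a median of 1.31. MDN1, the AAA ATPase of ribosome assembly, was at 1.85, and EP400, a chromatin remodeller, at 1.81. TPR, of the nuclear pore basket, was at 1.56, and RANBP2, of the pore's cytoplasmic filaments, at 1.06. NIPBL, the cohesin loader, was at 0.99. BRCA2, which acts in repair of DNA by homologous recombination, had 200 heavy and 190 light counts in the wild type gradient and 231 heavy and 245 light counts in the labelled knockout gradient, and its ratio of 0.11 did not pass (edgeR adjusted p = 0.728) and was -0.12 with library totals as the scale.

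RANBP2 shares 32.7% of its 50-base coding windows with other genes. The RGPD rows that hold its near-identical copies had at most 7 counts in any library. Of 32 partners of these nuclear proteins, 21 passed toward heavy and 3 toward light polysomes, with a median of 0.98. LAS1L (2.72) and PELP1 (2.52), of the ribosome assembly machinery that MDN1 acts on, were the highest.

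LAMA5, the laminin alpha 5 chain of epithelial basement membranes, had 848 and 533 counts in wild type heavy and light polysomes and 1259 and 508 in the labelled knockout ones, for a log2 ratio of 1.11 (edgeR adjusted p = 9.63e-05). Other laminin subunits that passed toward heavy polysomes were LAMB2 (2.25), LAMB3 (1.87), LAMB1 (1.53), LAMC1 (1.48), LAMA4 (1.30) and LAMA3 (1.27). LAMA2 at 0.17 did not pass (edgeR adjusted p = 0.596). Of 31 partners of the cytoskeletal linkers, 27 passed toward heavy and 1 toward light, with a median of 1.42, led by KRT8 (2.63) and FLNC (2.20).

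Other giant mRNAs gave the level of the class. Among gene rows that are not members but were matched to at least 1900 codons, 380 were tested, and 241 of them passed toward heavy polysomes and 21 toward light. Their median log2 ratio was 0.88, beside 1.31 for the members. No test of that difference was made, because the members were not drawn at random from the class. The row KIAA0754 carries the same share of codons ending in G or C as the member MACF1, and MICALCL the same as MICAL2. Matching through older symbols may have given these rows the same coding sequence, so the other giants may not all be separate genes. By coding length over all genes tested, the wild type median was -1.32 for up to 150 codons, 0.37 at 501 to 750, 0.92 at 1501 to 1900, 1.04 at 2501 to 4000 and 0.91 above 4000 codons. In the labelled knockout gradient the same classes had -1.29, 0.40, 0.81, 0.89 and 0.96. The labelled knockout medians were higher in each longer class, and differences between the 4 longest classes were small in both gradients.

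**Figure D3:**
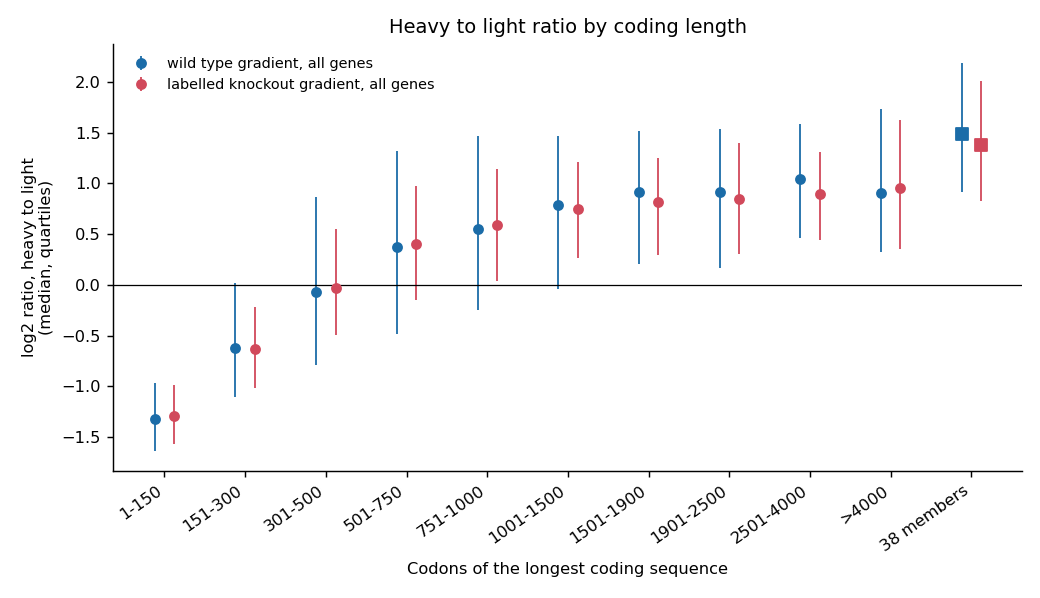
Median log2 ratio of heavy to light polysomes in classes of coding length in codons, for the wild type and the labelled knockout gradient (circles), and for the 38 members (squares), with bars between the quartiles. The class medians climb from -1.32 and -1.29 in the shortest class and are between 0.81 and 1.04 in the 4 longest.

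Within the members, the ratio varied little with length and more with base composition. Across the 38 genes, Pearson's r between coding length in codons and the fitted log2 ratio was 0.0256 (Spearman's rho 0.0977). By gradient, r with length was -0.114 (rho -0.030) in the wild type and 0.170 (rho 0.251) in the labelled knockout. With GC3, the share of codons that end in G or C, r of the fitted ratio was 0.595 (rho 0.607). With the GC content of the whole coding sequence it was 0.66 (rho 0.68), so codon ends did not stand out from base composition as a whole. With the length of the untranslated region after the coding sequence it was -0.356 (rho -0.345). In the wild type gradient alone r with GC3 was 0.507 and in the labelled knockout gradient 0.646. Members and other giants come from the same 4 libraries, genes are not independent replicates, and the correlations are descriptions without a test.

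The members with the highest ratios included GC-rich genes, and those with the lowest were AT-rich. GC3 was 88.9% in PLEC, 80.3% in MYH14 and 76.6% in FLNA. It was 34.8% in ATM, 30.1% in VPS13A and 26.7% in BRCA2. Of 13 members with GC3 up to 40%, 8 passed toward heavy and 1 toward light polysomes, with a median of 1.06. Of 12 between 40 and 60%, 12 passed toward heavy, with a median of 1.60. All 13 above 60% passed, with a median of 1.84.

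The other 380 giants had the same order. Their medians were 0.55, 0.89 and 1.25 in the 3 GC3 classes, and r was 0.351 (rho 0.368). With the GC content of their whole coding sequence r was 0.355 (rho 0.392). Over all 12520 tested genes with a matched coding sequence the order by GC3 was not seen. There r with GC3 was 0.0289 (rho 0.0194) and the class medians were 0.10, 0.02 and 0.00. Mean level moved with the ratio as well. Among members, r between log2 mean CPM and the ratio was 0.539 and between log2 mean CPM and GC3 0.337. Among the other giants these were 0.371 and -0.138, so the correlation of level with GC3 had opposite signs in the 2 sets. The part of level in the relation to GC3 was not tested.

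Exceptions stood on both sides of the relation. SPTBN1, with a GC3 of 69.0%, was at 0.59, and LAMA5, with 81.6%, at 1.11. TPR, with 31.3%, was at 1.56, and MYCBP2, with 36.6%, at 1.45. Among the kinases PRKDC, with 49.3%, was at 2.23, above MTOR with 63.8% and TRRAP with 66.8%. Among the myosins GC3 was 84.1% in MYH9, 80.3% in MYH14 and 56.5% in MYH10. At the 1539 of 1959 aligned residues that are identical in MYH9 and MYH10 (78.6%), GC3 was 84.6% in MYH9 and 56.9% in MYH10, so the difference in codon ends is present where the proteins are the same.

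**Figure D4:**
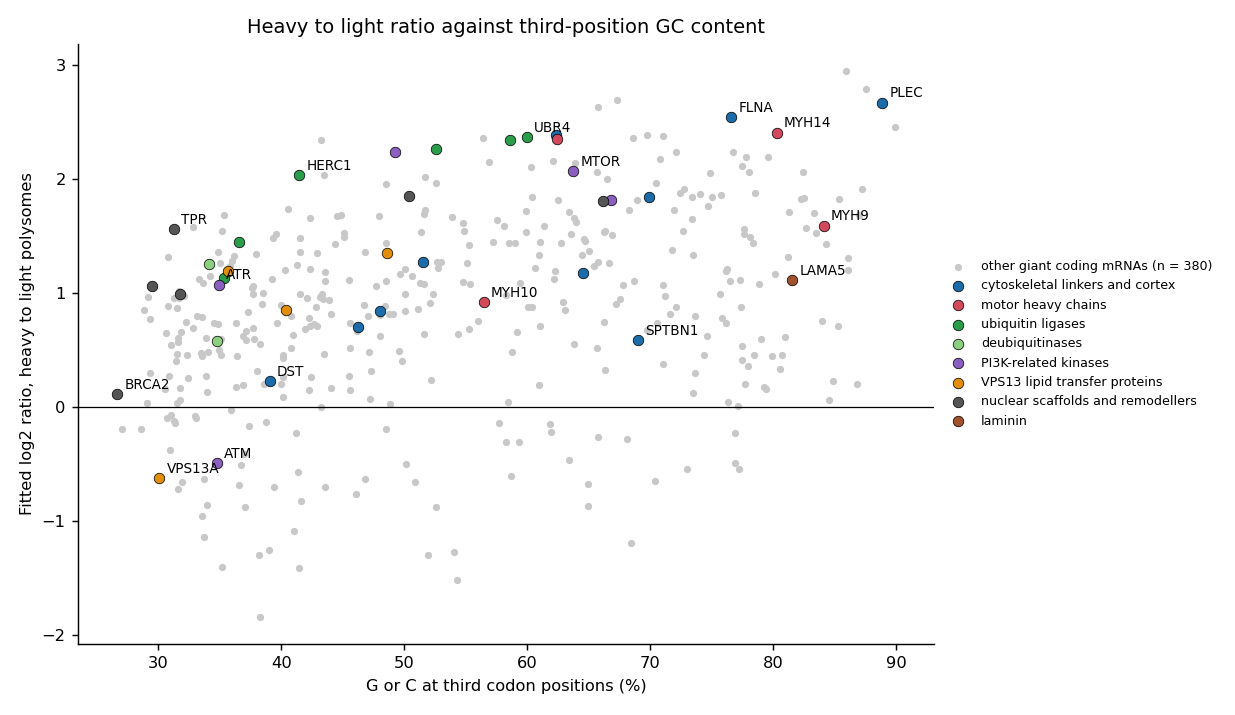
Fitted log2 ratio of heavy to light polysomes against GC3 (percent) for the 38 members, coloured by role, over the other 380 giant mRNAs in grey. All 13 members above 60% lie above 0, and ATM and VPS13A lie below 0 at the left.

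Most members had a larger share of the reads in the labelled knockout than in the wild type, in both fractions. Each side of this comparison has 1 library, so it has no replicate check and no test, and the intervals cover counting error only. In heavy polysomes the labelled knockout to wild type ratio, on the log2 scale, was above 0 for 36 of 38 members, where 46.7% of 10690 genes were above 0, counted where the higher library had at least 100 counts. In light polysomes it was above 0 for 37 of 38, where 50.4% of 10992 genes were. The median was 0.46 in heavy and 0.71 in light polysomes, beside -0.02 and 0.00 for all genes tested.

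The other giants also had medians above 0, at 0.23 in heavy and 0.26 in light polysomes, with 276 and 265 of 380 above 0. Their median length was 2353 codons, beside 3620.5 for the members. Over all tested genes of 2501 to 4000 codons, members included, the medians were 0.32 in heavy and 0.44 in light polysomes. Above 4000 codons they were 0.44 and 0.42. Counting intervals lay above 0 for 31 members in heavy polysomes, beside 33.0% of all genes. In light polysomes the intervals lay above 0 for 35 members, beside 4173 of the 10992 genes counted there. Those of ATM, MYCBP2 and VPS13D reached 0 or below. Both fractions were above 0 for 35 members, beside 30.8% of the 10418 genes counted in both. The exceptions were TPR, USP9X and VPS13D. Ribosomal RNA took a larger share of both libraries labelled knockout (4.32 and 5.97%) than of the wild type ones (2.61 and 3.59%), and its part in these ratios was not tested beyond leaving out its row, which left the 36 and 37 in place.

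**Figure D5:**
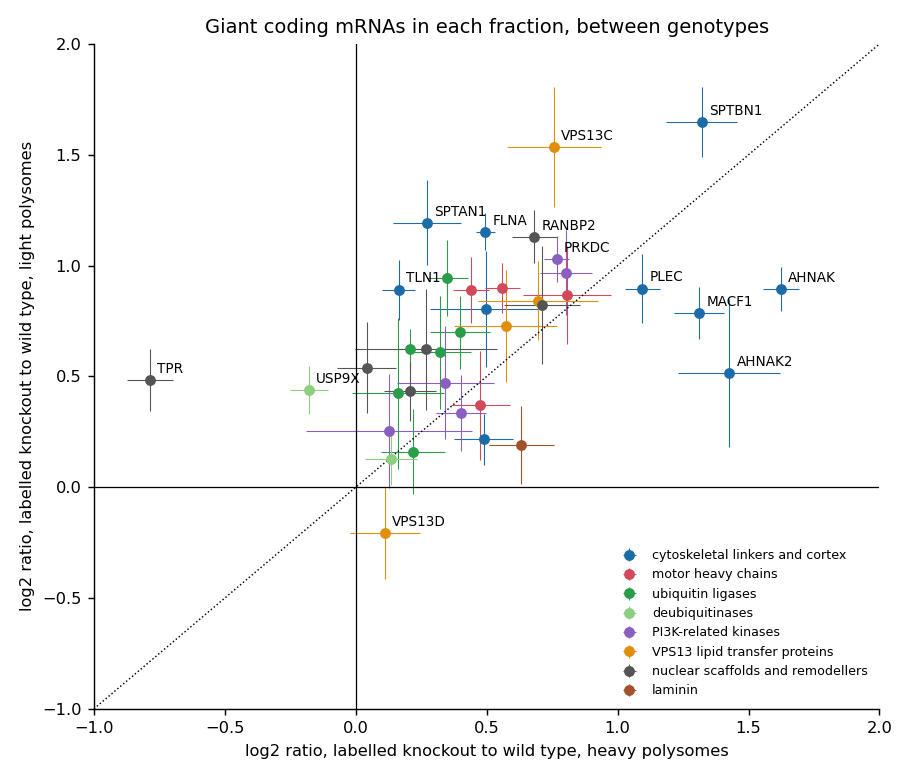
Labelled knockout to wild type ratio (log2) in light polysomes against that in heavy polysomes for the 38 members, coloured by role, with 95% counting intervals and a dotted line of equal ratios. SPTBN1 lies past 1 on both axes, and TPR and USP9X lie left of 0.

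A linker held the largest ratio in each fraction. In heavy polysomes 5 members were at least 2-fold higher in the labelled knockout, and all 5 were linkers (3.26% of all genes were as high). AHNAK was at 1.62 (counting interval 1.55 to 1.69), AHNAK2 at 1.43 (1.23 to 1.62), SPTBN1 at 1.32 (1.19 to 1.46), MACF1 at 1.31 (1.22 to 1.41) and PLEC at 1.09 (1.03 to 1.16). In light polysomes 6 members were at least 2-fold higher, beside 3.91% of all genes. These were SPTBN1 at 1.65 (1.49 to 1.81), VPS13C at 1.54 (1.27 to 1.80), SPTAN1 at 1.19, FLNA at 1.15, RANBP2 at 1.13 and PRKDC at 1.03.

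SPTBN1, on chromosome 2 from 54456317 to 54671446, was the 1 member at least 2-fold higher in both fractions (1.17% of all genes). No member was 2-fold lower in either fraction, where 2.60% of all genes were lower in heavy and 3.05% in light polysomes. By role, the median ratio in heavy and light polysomes was 0.80 and 0.89 for linkers, 0.52 and 0.88 for motors, and 0.63 and 0.78 for VPS13 genes. It was 0.40 and 0.47 for the kinases and 0.27 and 0.62 for the ligases. It was 0.24 and 0.58 for the nuclear scaffolds and remodellers, and LAMA5 was at 0.63 and 0.19. For the 2 deubiquitinases it was -0.02 and 0.28, with USP9X at -0.18 and 0.44 and USP34 at 0.14 and 0.13.

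Within the labelled knockout the members lay on balance slightly less far toward heavy polysomes. The difference between the log2 heavy to light ratios, labelled knockout minus wild type, was below 0 for 27 of 38 members, beside 53.5% of 10834 genes that had 50 or more counts in every library. Its median was -0.24 over members, -0.01 over all genes tested and -0.25 over the partner genes, of which 106 of 163 were below 0. Over the other giants the median was -0.03, with 201 of 380 below 0. With library totals as the scale the members' median was -0.10 and that of all genes 0.13, and with DESeq2's size factors they were -0.32 and -0.09. Counting intervals lay below 0 for 17 members and above 0 for 7, where 37.2% and 28.6% of all genes did. The whole labelled knockout gradient had a narrower spread of ratios, with an SD of 0.93 over all genes tested against 1.19 in the wild type, and its part in the members' differences was not tested.

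TPR, on chromosome 1 from 186311652 to 186375693, had the largest difference. It had 2961 and 753 counts in wild type heavy and light polysomes and 1642 and 879 in the labelled knockout ones. The log2 heavy to light ratio was 2.19 (counting interval 2.08 to 2.31) in the first and 0.92 (0.80 to 1.04) in the second, a difference of -1.27 (-1.43 to -1.10). It was the 1 member with a difference of 2-fold or more toward light, beside 2.37% of all genes.

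SPTAN1 followed at -0.92 (-1.15 to -0.69), then VPS13C at -0.78, TLN1 at -0.73, FLNA at -0.66 and USP9X at -0.62. The AHNAK genes stood at the other end, with AHNAK2 at 0.91 (0.53 to 1.30) and AHNAK at 0.73 (0.61 to 0.85), followed by MACF1 at 0.53 and LAMA5 at 0.44. Pearson's r between the wild type and the labelled knockout log2 ratio of the 38 members was 0.866 (rho 0.820), as a description across genes.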

How the data were processed

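RNA of heavy and light polysomes of HCT116 cells was sequenced in 4 libraries. The deposited values are whole-number counts of reads for each gene symbol, with no sign of normalisation by the authors. Per the submitters' processing notes, CASAVA, STAR, HTSeq and hg19 were used. Versions, annotation, strand setting and the treatment of reads shared between near-identical genes were not given in the sources used here. Library totals ran from 17457116 to 20933675 counts. Of the 26364 rows, 24404 were matched to GENCODE 44, which gave positions on GRCh38, lengths and base composition.

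Heavy and light were compared with edgeR 4.0.16 in R 4.3.3 (TMM, filterByExpr, gradient as a block, quasi-likelihood test, Benjamini-Hochberg adjusted p under 0.05), tested on simulated data first. Genotypes were compared as log2 ratios of TMM-scaled CPM with a prior count of 2 and 95% counting intervals, which cover counting error only, because no molecular identifiers are named and reads are then not independent molecules. Other settings used DESeq2 1.42.0, other scalings, filters, prior counts and count minimums, and a fit without the block. The row RNA45S5 (2.61 to 5.97% of the counts) stayed in the totals, and 1 setting left it out. Python 3.11.15 and pandas 2.3.3 made summaries.

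Members and gene lists were chosen with earlier results of these data known. All members could be named. So could the dynein, myosin and laminin subunits, the 2 highest and 2 lowest of the other partner lists, and the 3 highest and 3 lowest of the other giants by each ratio. Some partner genes are not reported here.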

Additional observations from a re-analysis of the deposited data

Results flagged for a closer look

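TPR, USP9X, VPS13D and BRCA2 moved in opposite directions in groups set under the same contrast, and none of these differences was tested, since each rests on single libraries. TPR was at -0.79 in heavy polysomes and at 0.48 in light ones on the log2 scale, labelled knockout against wild type, with counting intervals of -0.87 to -0.70 and 0.34 to 0.62. For USP9X it was -0.18 in heavy (-0.25 to -0.11) and 0.44 in light polysomes (0.33 to 0.55). For VPS13D it was 0.11 in heavy (-0.02 to 0.25) and -0.21 in light polysomes (-0.41 to 0.00), so that both intervals reach 0. BRCA2 had a log2 heavy to light ratio of 0.29 (0.01 to 0.58) in the wild type gradient and -0.06 (-0.32 to 0.20) in the labelled knockout gradient.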

How the results depend on the processing

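The number of members called toward heavy polysomes ran from 31 to 34 across the scalings, the filter, the removal of RNA45S5 and DESeq2, and was 24 in the fit with no replicate block, where the gradient was left out. Without the block 0 members were called toward light in edgeR (0 at an unadjusted p under 0.05), DESeq2 called 0 (1 at an unadjusted p), and library totals as the scale gave 2. Library totals moved the median log2 ratio of all genes tested from -0.07 to -0.30, the members' median to 1.08, that of the other giants to 0.64 and that of the partner genes to 0.54. With them DST was at -0.0075 and BRCA2 at -0.12, both turned in sign, and 38.9% of all called genes were toward heavy in place of 50.6%. With a gradient left out, the members' median was 1.37 to 1.49. Among the other giants, 156 passed toward heavy and 8 toward light with no replicate block, DESeq2 called 11 toward light, and a minimum of 2500 codons, which takes in fewer genes, left 102 and 8. Without the block all genes gave 2183 calls toward light in place of 3977. The members that lost their call without it were MACF1, UTRN, SPTBN1, SPTAN1, AHNAK, MYH10, VPS13A, VPS13B, VPS13C and RANBP2. The cause of these changes was not tested. In the genotype comparison 36 members in heavy and 37 in light polysomes were above 0 in each setting run. Defining the other giants by the canonical transcript was an alternative chosen after seeing the data. The lowest count of a member was 129, for HERC1 in wild type light polysomes, and ATM had 152 in wild type heavy polysomes. At such counts, counting error alone limits what can be said of a member.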

Other observations

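Among the other giant mRNAs with at least 100 counts in each library, those furthest toward heavy polysomes were FASN, the fatty acid synthase, at a log2 ratio of 2.94, INTS1, a subunit of the Integrator complex, at 2.79 and PRPF8, the core protein of the spliceosome, at 2.69. Furthest toward light were KIAA2018 at -1.40, MUC3A at -1.27 and NACA at -1.25. NACA is listed among the giants through its longest isoform, and counts per gene do not show which isoform was read.

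The highest ratios of labelled knockout to wild type among these genes were those of matrix and receptor genes. VCAN, which encodes the proteoglycan versican, was at 2.37 in heavy and 2.71 in light polysomes, COL12A1, a collagen chain, at 2.11 and 2.49, and IGF2R, the receptor of IGF2 and mannose 6-phosphate, at 1.89 and 1.51. The lowest mean ratios were -0.72 for KIAA1217, -0.57 for BAZ2B and -0.54 for TRIP12. None of these has a replicate check.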
